A study of Mus musculus with 6 samples.

Results

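The 9 genes described here are the homeobox genes Six2, Six3, Six4, Six5 and Six6 and the Sall zinc finger genes Sall1, Sall2, Sall3 and Sall4, out of 24421 genes counted. The first 5 belong to the Six-family of homeodomain factors and the other 4 to the Sall family. They were chosen by family name, with the difference between the genotypes already known, and were then divided by their level in the SKO libraries. RNA was sequenced from germinal vesicle (GV) oocytes, fully grown oocytes held in meiotic prophase, of mice about 3 months old on a mixed FVB, 129/Sv and C57BL/6J background. The DKO genotype was Ring1 -/-; Rnf2 f/f; Zp3-cre, and the SKO genotype was Ring1 -/-; Rnf2 f/f, with 3 libraries each. All animals of both genotypes lacked Ring1, so the comparison concerns Rnf2 in oocytes without Ring1. The Zp3 promoter, which drives the Cre recombinase, is active in growing oocytes. Since Cre was present in DKO alone, effects of Cre and of Rnf2 loss cannot be told apart. Each library was made from 15 oocytes of 1 mouse, after granulosa cells had been removed by pipetting. In such pools, fewer oocytes holding a transcript and less of it per oocyte cannot be told apart.

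Ring1 and Rnf2 encode the E3 ligases of Polycomb repressive complex 1 (PRC1), which ubiquitinates histone H2A at repressed genes, many of them CpG-rich genes for developmental transcription factors. Six-family factors bind DNA through a homeodomain and a domain of their own beside it, and act with Eya coactivators or Groucho corepressors. Sall factors are zinc finger proteins, several of which recruit the NuRD repressor complex. Members of both families act in the developing kidney and sense organs, and Sall4 also acts in pluripotent cells and the germline.

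Sequences from upstream of these genes are shown because they run from a CpG-rich window to one with no CpG. They are those of Six2 and Sall1, which were higher in DKO, Six6, which had no reads, and Sall2, which was not called. Each is the 250 bases before an annotated RefSeq start (GRCm38.p6), written 5′ to 3′ on the gene's own strand, with every CG dinucleotide in capitals. The window of Six2 is chr17:85688255-85688504 on the minus strand, that of Sall1 is chr8:89044163-89044412 on the minus strand, that of Six6 is chr12:72939632-72939881 on the plus strand, and that of Sall2 is chr14:52328671-52328920 on the minus strand.
Six2: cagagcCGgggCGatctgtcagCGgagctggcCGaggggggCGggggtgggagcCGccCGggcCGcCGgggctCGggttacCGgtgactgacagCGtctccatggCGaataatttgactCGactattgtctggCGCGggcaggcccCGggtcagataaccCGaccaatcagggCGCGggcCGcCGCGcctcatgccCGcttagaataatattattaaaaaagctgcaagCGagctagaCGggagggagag
Sall1: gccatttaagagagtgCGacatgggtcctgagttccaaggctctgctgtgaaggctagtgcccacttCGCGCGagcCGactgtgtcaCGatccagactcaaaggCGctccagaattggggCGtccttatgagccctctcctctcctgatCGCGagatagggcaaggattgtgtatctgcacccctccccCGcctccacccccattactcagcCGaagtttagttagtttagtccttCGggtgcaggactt
Six6: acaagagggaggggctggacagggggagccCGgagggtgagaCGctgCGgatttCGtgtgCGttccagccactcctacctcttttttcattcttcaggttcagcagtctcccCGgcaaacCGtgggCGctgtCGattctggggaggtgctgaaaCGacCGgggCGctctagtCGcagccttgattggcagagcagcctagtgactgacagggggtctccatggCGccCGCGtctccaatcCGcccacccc
Sall2: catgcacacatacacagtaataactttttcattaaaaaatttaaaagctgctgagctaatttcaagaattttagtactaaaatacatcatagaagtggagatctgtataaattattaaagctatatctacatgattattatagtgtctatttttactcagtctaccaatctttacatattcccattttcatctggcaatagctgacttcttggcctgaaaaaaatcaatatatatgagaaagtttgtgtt
The Six2 window held 26 CG dinucleotides, and 9.59% of the 32851 windows in the RefSeq table held at least as many. The Six6 window held 17, reached by 23.5% of windows, and the Sall1 window held 13, reached by 31.5%. The Sall2 window held 0, and it is the outer start of that gene; its inner start had 6, the median of all windows. The other Sall1 starts had 25 and 30, the Six4 starts 13 and 15, the Six5 start 13 and the Six3 start 10. In all, 7 of the 9 genes had windows, 11 windows together. The order of the genes by CG count depended on the start used. Sall1 had 13 at its outermost start, as Six5 did, and up to 30 at its others. Six6 with 17 had no read in any library, and Sall3 and Sall4 had no window. Whether CG counts go with the changes was not tested. A CG count describes these letters and says nothing of what binds there.

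Total counts per library were 15521975, 19813804 and 26652745 in DKO and 25470098, 22990699 and 26437540 in SKO. Levels below are CPM, the counts scaled to a common library size, with library sizes adjusted by the TMM method, and RPKM is CPM per kilobase of the deposited gene length. A count of 0 allows up to 3 counts, which is 0.116 to 0.171 CPM in the DKO libraries and 0.121 to 0.138 CPM in the SKO libraries; such limits and the intervals below cover counting error only. Rnf2 had 989, 654 and 589 counts in DKO libraries, against 5041, 3901 and 4563 counts in SKO libraries, a log2 fold change of -2.38 (SE 0.30, edgeR adjusted p = 0.000349). Ring1 had 19 counts in all in DKO and 10 in SKO, too few to be tested. Correlations of log2 CPM across genes between libraries were 0.942 to 0.962 within DKO, 0.973 to 0.977 within SKO and 0.865 to 0.898 between the genotypes, so the DKO libraries differed more among themselves. The oocyte factors Gdf9 (3990 ± 1480 CPM in DKO and 5650 ± 647 CPM in SKO), Bmp15 (2240 ± 151 CPM in DKO and 3580 ± 65.8 CPM in SKO) and Padi6 (1850 ± 586 CPM in DKO and 2700 ± 342 CPM in SKO) were abundant in both genotypes.

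Of the 9 genes, 4 were higher in DKO oocytes, namely Six2, Six4, Sall1 and Sall3, and 1, Sall4, was lower. Sall2 and Six5 were not called, and Six3 and Six6 had too few reads to be tested. The test was edgeR's quasi-likelihood test, and a gene was called at a Benjamini-Hochberg adjusted p under 0.05 over the 14845 genes that passed the filter on low counts. In that fit 17.3% of tested genes were called higher in DKO and 7.41% were called lower, and in 44.3% the DKO values did not overlap the SKO values. Without TMM scaling, on library totals alone, the share of higher genes among all calls was 82.9%, against 70.0% with it, and the median log2 fold change of all genes was 0.20 in place of 0.04. Of the 7 genes tested, 4 would have passed the filter on their SKO reads alone. Six2, Six4 and Sall1 entered only through their DKO reads. Such entry favours genes that are higher in DKO but does not force a difference. Dach2, for example, also entered in this way and was not called (edgeR adjusted p = 0.288). Because the genes were chosen with this comparison known, their p-values place them in the fit over all genes and are not independent evidence.

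**Figure D1:**
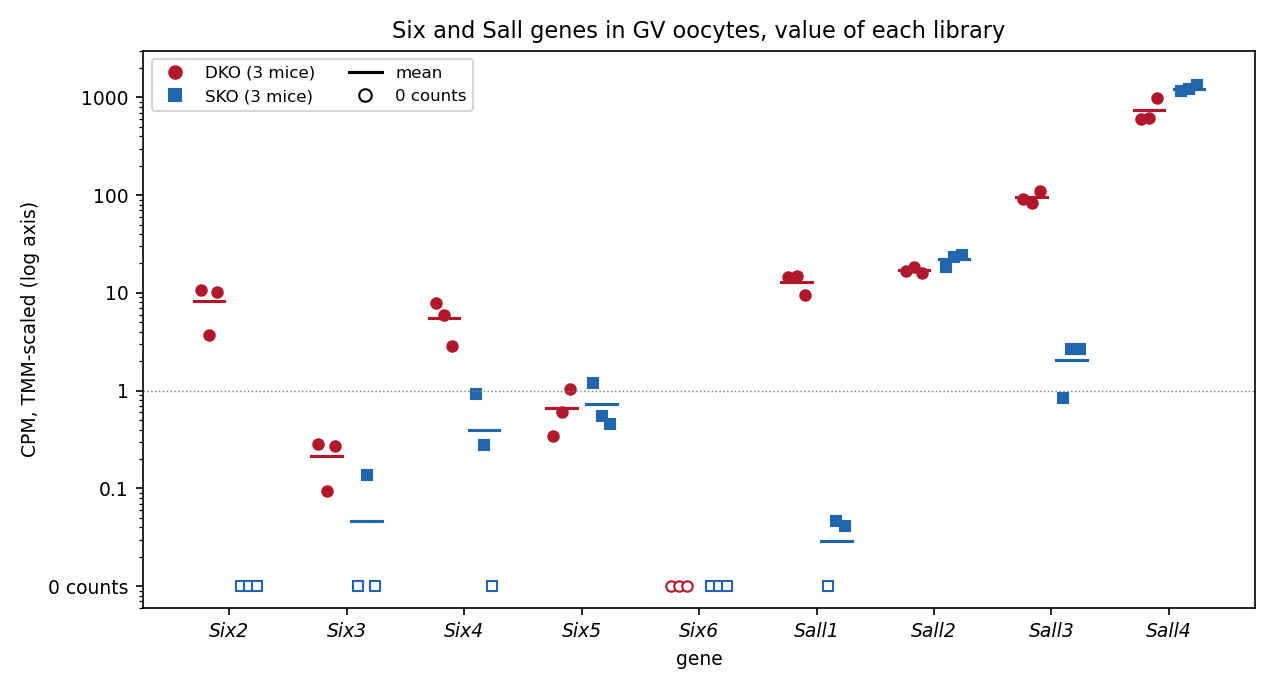
Level of each of the 9 genes in every library, in CPM on a log axis, with DKO libraries as red circles on the left and SKO libraries as blue squares on the right of each gene; lines are means of 3 libraries, open symbols are libraries with 0 counts, and the dotted line is 1 CPM. The DKO and SKO points of Six2, Six4, Sall1, Sall3 and Sall4 do not overlap, as in 44.3% of all tested genes, those of Six3, Six5 and Sall2 overlap, and Six6 has no read in any library.

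Six2 keeps nephron progenitors of the kidney in their undifferentiated state. The gene lies at chr17:85662736-85688254 (GRCm38). It had 187, 79 and 262 counts in the DKO libraries, against 0, 0 and 0 counts in the SKO libraries. This is 10.6, 3.71 and 10.2 CPM in DKO, so that DKO replicate 2 was lowest, and no SKO library had a read. The mean was 8.17 ± 3.87 CPM in DKO oocytes and 0 CPM in SKO oocytes (SD, n = 3 each), at least 193-fold higher against 3 counts over the SKO group (edgeR adjusted p = 0.000187). The fitted log2 fold change of 10.53 depends on the prior count and is no bound.

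Six3 lies 36.5 kb from Six2 on the same chromosome and acts in the forebrain and the eye. It had 5, 2 and 7 counts in DKO libraries, against 0, 3 and 0 counts in SKO libraries. The DKO and SKO values overlapped, at 0.217 ± 0.107 CPM in DKO oocytes and 0.046 ± 0.0797 CPM in SKO oocytes (SD, n = 3 each). The ratio of the pooled counts was 5.12, with an exact interval of 1.43 to 27.8 (95%) that covers counting error in these libraries and not the spread between mice. Six3 did not pass the filter; with no filter its log2 fold change was 2.13 with an edgeR adjusted p of 0.376. An antisense neighbour, Six3os1, shares 4789 bases of its span with Six3 and had 4 counts in all in DKO and 0 in SKO. The sources used here do not say whether counting used strand, so reads of the pair cannot be told apart.

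Six4 acts in muscle and kidney precursors. The gene (chr12:73099609-73114031) had 139, 127 and 74 counts in DKO libraries, against 23, 6 and 0 counts in SKO libraries. All DKO values, from 2.87 to 7.91 CPM, lay above all SKO values, from 0 to 0.925 CPM, and the SKO reads came mostly from replicate 1. The mean was 5.58 ± 2.54 CPM in DKO oocytes and 0.4 ± 0.475 CPM in SKO oocytes (SD, n = 3 each), and the log2 fold change was 3.77 (SE 0.91, edgeR adjusted p = 0.0129). Without DKO replicate 1 the call was lost (3.43, adjusted p = 0.0516), and the fold change was 5.31 without SKO replicate 1 and 3.17 without SKO replicate 3. Mnat1, a cofactor of the CDK-activating kinase, shares 1847 bases of its span with Six4; it had 18.3 ± 0.994 CPM in DKO oocytes and 15.8 ± 2.62 CPM in SKO oocytes (SD, n = 3 each) and was not called (log2 fold change 0.21, adjusted p = 0.556).

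Six5, a gene next to the myotonic dystrophy kinase gene Dmpk, had 6, 13 and 27 counts in DKO libraries, against 30, 12 and 11 counts in SKO libraries. The groups overlapped, at 0.666 ± 0.356 CPM in DKO oocytes and 0.737 ± 0.41 CPM in SKO oocytes (SD, n = 3 each), and the gene was not called (log2 fold change -0.13, SE 0.68, edgeR adjusted p = 0.914). Six6, which acts in the eye and the hypothalamus, had 0 counts in all 6 libraries, so no difference could be seen at this depth. It lies 155 kb from Six4. Bhmg1, which shares 279 bases of its span with Six5, was not found among the genes counted.

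Sall1 acts in the kidney mesenchyme, limb and ear. The gene (chr8:89027242-89044162) had 253, 319 and 246 counts in DKO libraries, against 0, 1 and 1 counts in SKO libraries. The DKO libraries were at 14.4, 15.0 and 9.55 CPM, and all SKO libraries were under the level of 3 counts. The mean was 13 ± 2.98 CPM in DKO oocytes and 0.029 ± 0.0253 CPM in SKO oocytes (SD, n = 3 each). The ratio of pooled counts was 449, with an exact counting interval of 124 to 3710, and the edgeR adjusted p was 9.65e-06. A noncoding RNA gene, Gm3134, shares 2920 bases of its span with Sall1 and was not found among the genes counted. With the use of strand unknown, its reads cannot be told apart from those of Sall1.

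Sall3, another Sall gene with roles in cranial nerves, limb and retina, lies at chr18:80966989-80987021. It had 1609, 1758 and 2827 counts in DKO libraries, against 21, 58 and 65 counts in SKO libraries. The DKO libraries were at 91.6, 82.5 and 110 CPM, and the highest SKO libraries were at 2.67 CPM. The mean was 94.6 ± 13.8 CPM in DKO oocytes and 2.06 ± 1.05 CPM in SKO oocytes (SD, n = 3 each), and the log2 fold change was 5.52 (SE 0.40, edgeR adjusted p = 1.05e-05).

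Sall2, the most divergent member of the family, had 293, 397 and 409 counts in DKO libraries, against 452, 507 and 595 counts in SKO libraries. The levels were 17.1 ± 1.42 CPM in DKO oocytes and 22.0 ± 3.34 CPM in SKO oocytes (SD, n = 3 each), and DKO replicate 2 at 18.6 CPM lay above SKO replicate 1 at 18.2 CPM. The gene was not called (log2 fold change -0.37, SE 0.23, edgeR adjusted p = 0.273).

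Sall4, an oocyte and stem cell factor, lies at chr2:168748332-168767201 and was the most abundant of the 9 genes. It had 10573, 13073 and 25702 counts in DKO libraries, against 28481, 26196 and 32605 counts in SKO libraries. In CPM the DKO libraries were at 602, 614 and 997 and the SKO libraries at 1150, 1210 and 1340, so the groups did not overlap and DKO replicate 3 was nearest to SKO. The mean was 738 ± 225 CPM in DKO oocytes and 1230 ± 98.9 CPM in SKO oocytes (SD, n = 3 each), and Sall4 fell by 0.74 on the log2 scale (SE 0.21, edgeR adjusted p = 0.0287). The call was lost when DKO replicate 1 or 2, or any SKO library, was left out, with adjusted p of 0.059 to 0.0999, and the log2 fold change was -1.03 without DKO replicate 3. Of 14 oocyte marker genes listed, 7 were also lower in DKO and 1 was higher, beside 7.41% lower and 17.3% higher over all tested genes. When a library was left out 3 to 8 were lower (the fewest without SKO replicate 3), and 5 were lower on library totals. Their summed level was 14400 to 18300 CPM in DKO and 23700 to 25500 CPM in SKO. The part of this in the Sall4 result was not tested. A noncoding RNA gene, Gm14261, shares 1059 bases of its span with Sall4 and was not found among the genes counted.

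**Figure D2:**
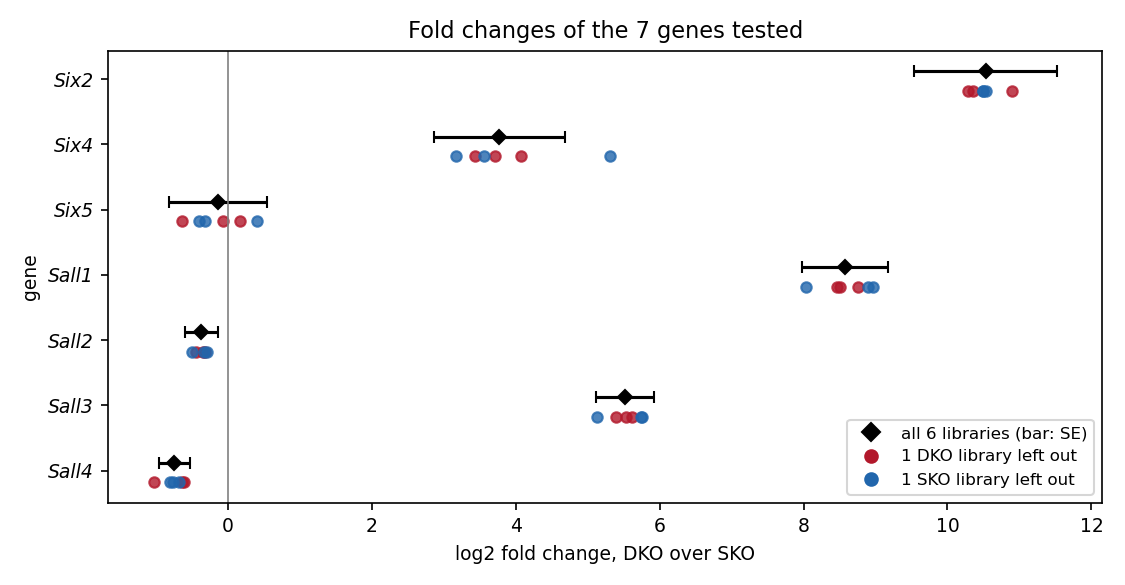
Log2 fold change, DKO over SKO, of the 7 genes tested (horizontal axis; 1 gene per line); black diamonds are the fit on all 6 libraries with its SE, and dots below are fits with 1 DKO library (red) or 1 SKO library (blue) left out. Sall1, Sall3, Six2 and Six4 stay above 0 in every fit, Sall4 and Sall2 stay below 0, and Six5 is on both sides; Six2 has 0 SKO counts, so its fitted value is no bound.

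The genes were set apart as silent, with a mean under 1 CPM over the SKO libraries, or already expressed. The 6 silent genes were Six2, Six3, Six4, Six5, Six6 and Sall1, and the 3 expressed genes were Sall2, Sall3 and Sall4. The highest silent gene was Six5, at 0.737 CPM in SKO, and the lowest expressed gene was Sall3, at 2.06 CPM in SKO. Of the 4 silent genes tested, 3 were higher in DKO, beside 45.9% of the 2495 tested genes under 1 CPM in SKO. Of the 3 expressed genes, Sall3 was higher, Sall4 was lower and Sall2 was not called, beside 11.5% called higher among the 12350 tested genes at 1 CPM or more. The medians of these classes over all genes were 1.94 for silent and -0.07 for expressed genes on the log2 fold change scale. These classes use the SKO values themselves, so the difference between them was not tested. With a limit of 5 CPM, or of 1 RPKM, Sall3 joined the silent genes, of which 4 of 5 tested were then higher, and with a limit of 0.5 CPM Six5 left them. The share of all tested genes called higher was not taken at these other limits, so 45.9% is not the background for them. Six2, Six4 and Sall1, which are among the higher genes, entered the test only through DKO reads.

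Per length, Sall4 stood first in both genotypes, at 145 ± 44.4 RPKM in DKO and 242 ± 19.5 RPKM in SKO (SD, n = 3 each). In DKO, Sall3 came next at 12.6 ± 1.84 RPKM, then Six2 at 3.88 ± 1.84, Sall2 at 3.2 ± 0.267, Sall1 at 2.47 ± 0.567, Six4 at 0.93 ± 0.423, Six5 at 0.234 ± 0.125 and Six3 at 0.0406 ± 0.02 RPKM. Among genes next to each other in that order, only Six2 and Sall2 overlapped. Six2, at 1.76 to 5.05 RPKM, also overlapped Sall1, at 1.82 to 2.85 RPKM. In SKO, Sall2 followed Sall4 at 4.12 ± 0.626 RPKM, then Sall3 at 0.274 ± 0.14 and Six5 at 0.258 ± 0.144 RPKM, which overlapped; Six4, Six3, Sall1 and Six2 were at 0.0667 RPKM or below, each overlapping the next, and Six4 did not overlap Six5. In SKO, Sall3, with a lowest value of 0.112 RPKM, also overlapped Six4, with a highest value of 0.154 RPKM. Sall3 stood above Sall2 in every DKO library and below it in every SKO library.

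Summed over the 5 Six-family genes described here, the level was 5.08 ± 1.86 RPKM in DKO and 0.333 ± 0.218 RPKM in SKO (SD, n = 3 each). Six2 made up 77.2%, 59.0% and 84.3% of that sum in the DKO libraries and none of it in SKO, whereas Six5 made up 1.83% to 7.17% in DKO and 72.9% to 100% in SKO. Six4 made up 20.2%, 33.3% and 8.37% of the sum in DKO, against 26.7%, 17.3% and 0% in SKO. Among the Sall genes without Sall4, the sum was 18.2 ± 1.07 RPKM in DKO and 4.4 ± 0.769 RPKM in SKO (SD, n = 3 each). Sall4 made up 88.4 ± 2.25% of all Sall transcript in DKO and 98.2 ± 0.252% in SKO, and Sall3 made up 7.86 ± 1.08% in DKO and 0.109 ± 0.0524% in SKO. The ratio of Sall4 to Sall3 was 9.74 to 13.5 in DKO libraries and 670 to 2010 in SKO libraries.

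**Figure D3:**
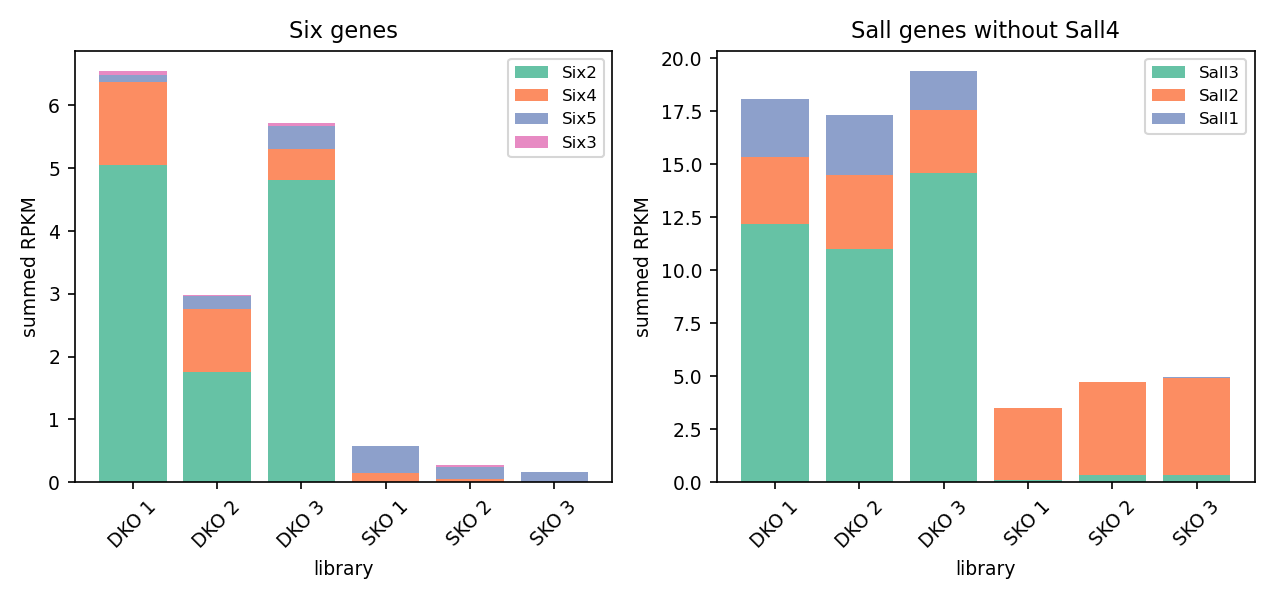
Summed level in RPKM of the Six-family genes (left) and of the Sall genes without Sall4 (right) in each library, DKO libraries first, with 1 colour per gene; there are no error bars because each bar is 1 library. The left-hand sums are 2.98 to 6.54 RPKM in DKO and 0.158 to 0.577 in SKO, mostly Six2 in DKO and Six5 in SKO; the right-hand sums are 17.3 to 19.4 RPKM in DKO, mostly Sall3, and 3.52 to 4.94 in SKO, mostly Sall2.

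Over all tested genes, 17.3% were higher in DKO and 7.41% were lower, which is the background for the lists that follow. Among partners of Six-family factors, the Eya and Dach genes gave no higher call in DKO and the Groucho genes gave 1. Of the 6 Eya and Dach genes, which encode coactivators and cofactors of these proteins, 4 were tested, 0 were higher and 2 were lower in DKO, with a median log2 fold change of -0.24. Eya1 had 58.8 ± 4.33 CPM in DKO oocytes and 91.9 ± 11.0 CPM in SKO oocytes (SD, n = 3 each; log2 fold change -0.64, SE 0.17, edgeR adjusted p = 0.0214). Eya3 had 57.4 ± 9.11 CPM in DKO and 84.9 ± 2.88 CPM in SKO (-0.56, SE 0.18, adjusted p = 0.0421). Both calls were lost when any of the SKO libraries was left out, with adjusted p of 0.0506 to 0.144, and on library totals (Eya1 adjusted p = 0.0629, Eya3 adjusted p = 0.0989). That of Eya3 was also lost without DKO replicate 1 or 2 and with the stricter filter (adjusted p = 0.0528). Of the 5 Groucho genes, corepressors that Six3 binds, 4 were tested, 1 was higher and 0 were lower, with a median of 0.46. That gene was Tle3, with 48.6 ± 1.72 CPM in DKO and 0.261 ± 0.263 CPM in SKO (7.48, SE 0.49, adjusted p = 6.23e-06); the log2 fold change was 8.71 without SKO replicate 1, and the list had 2 higher genes without DKO replicate 3, on library totals, with the stricter filter, with DESeq2, with limma voom and on thinned counts.

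Sall1 and Sall4 recruit the NuRD complex, a histone deacetylase and nucleosome remodelling complex. Of 15 genes for its subunits, 14 were tested, with a median log2 fold change of -0.09. In DKO 0 were higher and 3 were lower, beside 17.3% higher and 7.41% lower over all tested genes. The 3 were Mta3 (log2 fold change -0.70, edgeR adjusted p = 0.0122), Gatad2a (-0.63, adjusted p = 0.0242) and Gatad2b (-0.73, adjusted p = 0.0292). Leaving out a library gave between 0 and 3 such calls: Mta3 was lost without SKO replicate 3, Gatad2a without DKO replicate 1 or any SKO library, and Gatad2b without DKO replicate 1 or 2 or SKO replicate 2 or 3. The helicase gene Chd4 was at 473 ± 56.8 CPM in DKO oocytes and 450 ± 25.8 CPM in SKO oocytes (SD, n = 3 each) and was not called.

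Genes that act beside Six2 and Sall1 in nephron progenitors moved both ways. Of 18 listed, 11 were tested, 5 were higher and 3 were lower in DKO, with a median log2 fold change of 1.10; 3 of the 11 entered the test only through DKO reads. Wt1, a kidney and gonad transcription factor, had 5.29 ± 1.17 CPM in DKO oocytes and 0.476 ± 0.361 CPM in SKO oocytes (SD, n = 3 each; log2 fold change 3.46, edgeR adjusted p = 0.0027), and 4.16 without SKO replicate 1. Bmp7, a signal that nephron progenitors need, had 34.3 ± 20.5 CPM in DKO and 5.87 ± 2.11 CPM in SKO (2.55, adjusted p = 0.00273). The progenitor marker Cited1 had 5.53 ± 0.219 CPM in DKO and 1.37 ± 0.771 CPM in SKO (2.01, adjusted p = 0.0105). Pax2, which is upstream of kidney formation, went the other way, with 28.6 ± 13.6 CPM in DKO and 82.7 ± 13.3 CPM in SKO (-1.53, adjusted p = 0.00694). Without DKO replicate 1, DKO replicate 2 or SKO replicate 2, or with the stricter filter, 3 genes of the list were higher. Eya1 is also on this list, and Lhx1 had no read in any library.

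The eye field and retina list had 16 genes, of which 11 were tested, 8 were higher and 1 was lower in DKO, with a median log2 fold change of 2.96; 4 of the 11 entered only through DKO reads. Pax6, the central eye field gene, had 57.5 ± 10.8 CPM in DKO oocytes and 1.45 ± 0.276 CPM in SKO oocytes (SD, n = 3 each; log2 fold change 5.31, edgeR adjusted p = 1.61e-06). Sox2 had 19.3 ± 7.5 CPM in DKO and 0.846 ± 0.403 CPM in SKO (4.50, adjusted p = 0.000111), and Lhx2 63.0 ± 18.9 CPM in DKO and 17.8 ± 4.24 CPM in SKO (1.82, adjusted p = 0.001). The signal gene Bmp4 had 5.43 ± 1.69 CPM in DKO and 0.149 ± 0.141 CPM in SKO (5.11, adjusted p = 0.000907), and 5.88 without SKO replicate 1. Without DKO replicate 3 or SKO replicate 3, 2 genes of the list were lower. The same held with DESeq2 or its size factors, a replicate block, no filter or thinned counts. Otx2 and Atoh7 had no reads in any library, as Six6 did.

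In the otic placode list of 13 genes, 6 were tested, 3 were higher and 2 were lower in DKO, the 2 being Pax2 and Eya1, with a median log2 fold change of 0.38; leaving out any SKO library, or using library totals, left 1 lower. The higher genes numbered 6 with DESeq2, 5 with no filter on low counts and 1 with the stricter filter. Neurog1, which specifies ear neurons, had 84 counts in DKO and 0 in SKO, at least 30.7-fold higher against 3 counts over the group (edgeR adjusted p = 0.00309). Dlx5 had 5.16 ± 4.47 CPM in DKO oocytes and 0.211 ± 0.146 CPM in SKO oocytes (SD, n = 3 each; log2 fold change 4.58, adjusted p = 0.00379), and 3.68 without DKO replicate 3 and 5.25 without SKO replicate 3. In the limb bud list of 12 genes, 10 were tested, 6 were higher and 1 was lower, with a median of 1.86. The lower gene was Tbx4, with 193 ± 63.2 CPM in DKO and 416 ± 8.67 CPM in SKO (log2 fold change -1.11, edgeR adjusted p = 0.00683). The autopod genes Hoxd13 and Hoxa13 had log2 fold changes of 3.82 (adjusted p = 2.12e-06) and 3.68 (adjusted p = 0.000966; 3.04 without DKO replicate 3). The forelimb gene Tbx5 had one of 1.94 (adjusted p = 0.00316), and Zbtb16 one of 3.47 (adjusted p = 0.00409; 4.20 without SKO replicate 1).

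Pluripotency and germline genes, among which Sall4 acts, gave 5 higher and 0 lower of 11 tested out of 14 (1 lower without DKO replicate 2), with a median log2 fold change of 0.54. Klf4 had 80.8 ± 12.5 CPM in DKO oocytes and 10.3 ± 1.39 CPM in SKO oocytes (SD, n = 3 each; log2 fold change 2.97, edgeR adjusted p = 1.2e-05), and Klf5 3.13 ± 0.151 CPM in DKO and 0.194 ± 0.0979 CPM in SKO (3.96, adjusted p = 0.000909). Sox2 and Zbtb16, given above, are also on this list, and Nanog had no read in any library. Pou5f1, a partner of Sall4 in embryonic stem cells, had 25.4 ± 8.01 CPM in DKO and 34.4 ± 3.77 CPM in SKO and was not called (-0.43, adjusted p = 0.239). Over the 8 lists together, which hold 93 distinct genes with 66 tested, 26 were higher and 9 were lower in DKO, beside 17.3% higher and 7.41% lower over all tested genes, whose median log2 fold change was 0.04. Genes that entered the test only through DKO reads were 1 in the Eya and Dach list, 1 Groucho gene, 2 each in the otic placode and limb bud lists and 3 in the pluripotency and germline list. The lists were written with earlier results known, so these counts describe them.

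**Figure D4:**
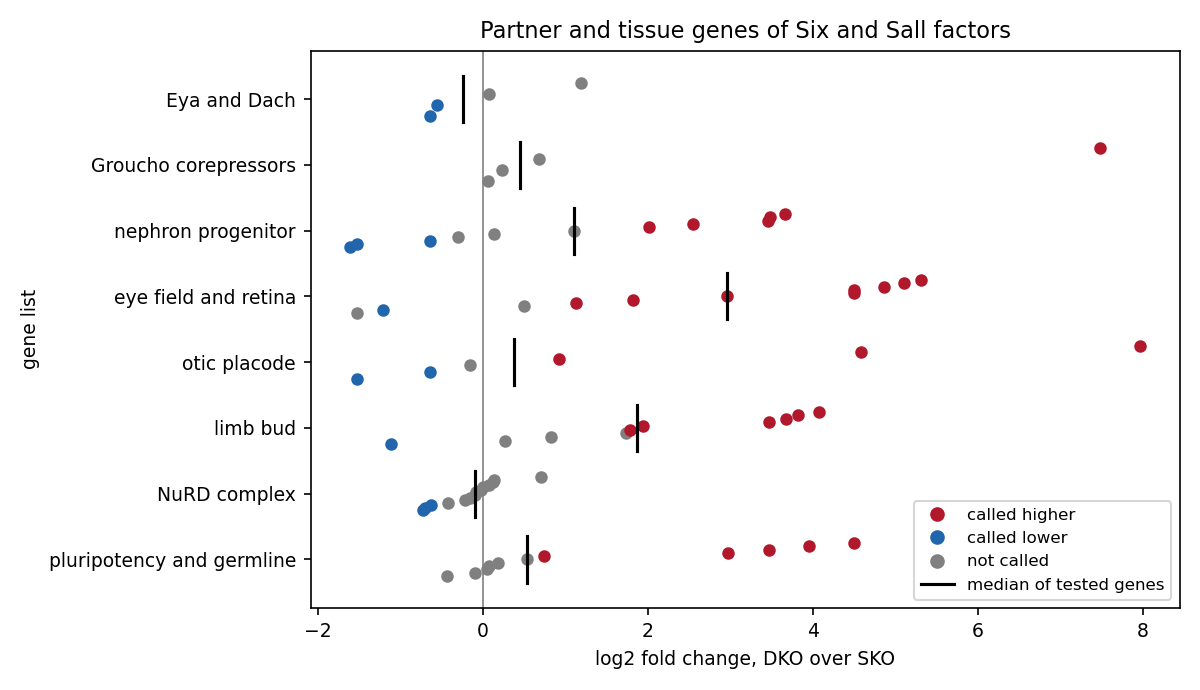
Log2 fold change, DKO over SKO (horizontal axis), of the tested genes of each list; each dot is 1 gene, red where called higher, blue where called lower and grey where not called, and the black line is the median. The eye field and retina list has the highest median, 2.96, and the NuRD list spreads around -0.09.

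The levels of other ovarian cell markers were read beside these results. Over all tested genes, 17.3% were higher and 7.41% were lower in DKO. Of 13 tested granulosa and cumulus markers, 5 were higher and 1 was lower. Of the 13, 5 did not pass the filter on their SKO reads alone. The summed level of the list was 271 to 295 CPM in DKO and 115 to 140 CPM in SKO. Without SKO replicate 1 there were 3 higher and without SKO replicate 2 there were 2, and the lower call was lost in 4 of the 6 fits with a library left out and on library totals. The 3 most abundant over all 6 libraries were Nr5a2, with 117 ± 15.5 CPM in DKO oocytes and 79.1 ± 9.97 CPM in SKO oocytes (SD, n = 3 each), Ptgs2, with 87.1 ± 8.92 CPM in DKO and 3.79 ± 0.496 CPM in SKO, and Cyp19a1, with 17 ± 1.49 CPM in DKO and 30 ± 6 CPM in SKO. The defining granulosa genes Amhr2 and Foxl2 had 7 and 71 counts in DKO, against 8 and 13 in SKO. Fshr, the granulosa receptor for follicle-stimulating hormone, had 1965 counts in DKO, against 36 in SKO (30.7 ± 2.54 CPM in DKO and 0.506 ± 0.0397 CPM in SKO, log2 fold change 5.91, edgeR adjusted p = 1.35e-06). The cumulus gene Has2 (2.23, adjusted p = 0.0162) and Inhba (2.01, adjusted p = 0.0257) were also higher. Theca, stroma and endothelium markers summed to 137 to 151 CPM in DKO and 126 to 171 CPM in SKO, with 5 higher and 1 lower of 10 tested, and were led by Pecam1 (60.9 ± 7.75 CPM in DKO and 109 ± 17.2 CPM in SKO), Cyp11a1 (36.9 ± 2.68 CPM in DKO and 14.6 ± 2.76 CPM in SKO) and Tek (32.7 ± 3.09 CPM in DKO and 25.5 ± 4.35 CPM in SKO). Pecam1 was the lower gene, and its call was lost without SKO replicate 3. The higher genes were Cyp11a1 and the stromal genes Col1a1 (1.35 ± 0.377 CPM in DKO and 0.0695 ± 0.0204 CPM in SKO), Dcn (3.43 ± 0.887 CPM in DKO and 0.518 ± 0.156 CPM in SKO), Pdgfra (4.99 ± 0.266 CPM in DKO and 0.765 ± 0.283 CPM in SKO) and Lum (50 counts in DKO and 0 in SKO). With the stricter filter on low counts 3 of the list were higher, and 5 of the 10 tested did not pass the main filter on their SKO reads alone. Blood and immune markers summed to 3.76 to 5.18 CPM in DKO and 1.97 to 3.66 CPM in SKO, with Tyrobp, Hba-a1 and Hbb-bs at 0 in every library; Cd68, Lyz2 and Csf1r led that list. Their part in the results of the 9 genes was not tested.

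The nearest protein-coding genes reported here, up to 2 on each side, were 29 distinct genes, of which 27 were tested. Of these, 6 were higher, 2 were lower and 19 were not called, with a median log2 fold change of 0.10. Over all tested genes, 17.3% were higher and 7.41% lower, with a median of 0.04, so the neighbours' counts are near that background. Near Six2, Camkmt at 204 kb and Srbd1 at 296 kb were not called, and Prkce, a protein kinase C gene 480 kb away, had 3.42 ± 1.18 CPM in DKO oocytes and 0.21 ± 0.176 CPM in SKO oocytes (SD, n = 3 each; log2 fold change 3.98, edgeR adjusted p = 0.0023; 4.90 without SKO replicate 3). 4930447C04Rik, 21.9 kb from Six6 and 182 kb from Six4, had 19.0 ± 8.1 CPM in DKO and 0.27 ± 0.237 CPM in SKO (6.11, adjusted p = 0.00022; 5.51 without SKO replicate 3), whereas Six6 next to it had no read. Near Sall3, Atp9b at 32.9 kb was not called (0.10, adjusted p = 0.844), and Nfatc1, a gene for a calcineurin-regulated transcription factor 254 kb away, had a log2 fold change of 2.45 (adjusted p = 0.000204). Galr1 and Mbp, 1410 and 1490 kb from Sall3 on its other side, had 1.77 (adjusted p = 0.0203) and 1.22 (adjusted p = 0.00644), and the Galr1 call was lost without SKO replicate 1 or 2. Tox3, 1200 kb from Sall1, had 1.32 (adjusted p = 0.00178). Beside Sall4, Atp9a at 5.96 kb and Nfatc2 at 147 kb were lower too, with log2 fold changes of -0.90 (adjusted p = 0.0165) and -1 (adjusted p = 0.033); the Atp9a call was lost without SKO replicate 2 or 3, and the Nfatc2 call when any SKO library was left out or on library totals (adjusted p = 0.0563). Dmpk, 0.723 kb from Six5, and Mettl3, 2.44 kb from Sall2, were not called.

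**Figure D5:**
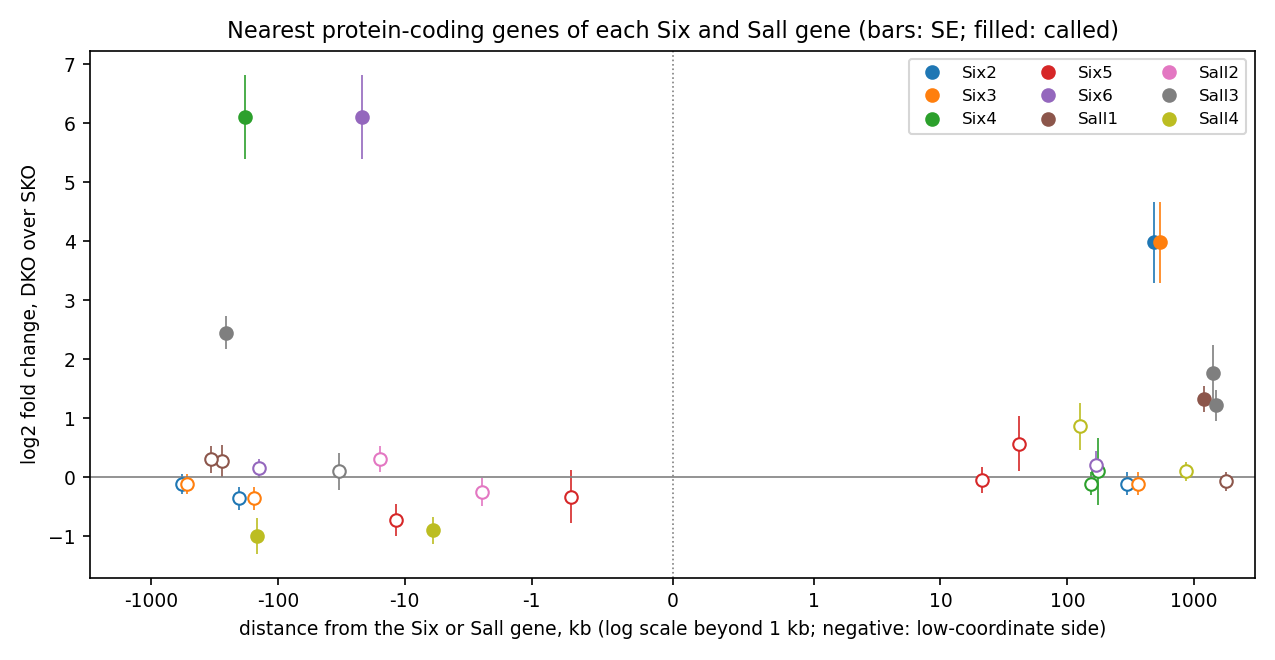
Log2 fold change, DKO over SKO, of the nearest protein-coding genes against their distance in kb from each of the 9 genes (log scale beyond 1 kb; negative on the low-coordinate side); filled dots were called, open dots were not, bars are SE, and a gene near a pair of these genes is drawn for each. The dots within 10 kb are Dmpk, Mettl3 and Atp9a, of which Atp9a was called lower, and the highest is 4930447C04Rik at 6.11. The 9 genes are not drawn as neighbours, and a gene that overlaps one of them is not drawn for it.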

How the data were processed

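Gene-level read counts of 6 GV-oocyte RNA-seq libraries, amplified before library preparation per the labels' protocols, were used as the authors deposited them. Reads were processed with STAR 2.5.0a on GRCm38/mm10, per the submitters' processing notes; the sources used here do not name the counting tool, its annotation or its use of strand. Gene names came from RefSeq (GRCm38.p6) by gene ID, with 34 of 24421 IDs unmatched. Groups came from the sample titles. The deposited counts were tested with edgeR 4.0.16 in R 4.3.3: filterByExpr (minimum count 10, minimum total count 15), TMM scaling and the quasi-likelihood test, two-sided, with Benjamini-Hochberg adjustment across the 14845 genes tested. CPM used TMM-scaled library sizes, and RPKM divided CPM by the deposited gene length. Total counts were 15521975 to 26652745 per library. Precision also depends on the spread among the 3 libraries of each genotype. The script was tested on simulated data. Alternatives were DESeq2 1.42.0, limma 3.58.1, other scalings and filters, thinned counts, a replicate block, and each library left out. Named genes were all 9 members, the targeted genes, up to 4 called genes per pathway list with the smallest adjusted p, called neighbours, overlapping genes and the 3 most abundant markers per list; other genes named in the text were chosen after their values were seen. The members and lists were chosen with earlier results of these data known. A neighbouring gene is not reported here.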

Additional observations from a re-analysis of the deposited data

How the results depend on the processing

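The count of genes called lower in DKO depended most on the settings: it was 1100, against 596 on library totals alone and 434 to 1501 with 1 library left out, the 3 lowest (434 to 516) without an SKO library. The genes called higher in DKO numbered 2567, and 1952 to 2704 with 1 library left out. Leaving out a library gave 3 to 4 of the 9 genes higher and 0 to 1 lower, against 4 and 1; the other settings gave the same counts. Over the pathway lists, 5 to 10 genes were lower with 1 library left out, against 9. Among neighbouring genes, 1 was lower on library totals and 0 to 3 with a library left out, against 2. Six5, which was not called, ranged from -0.63 to 0.41 with 1 library left out and changed sign, to 0.17 without DKO replicate 1 and 0.41 without SKO replicate 1. The cause was not tested. Same-numbered DKO and SKO libraries had deviations correlated at 0.139, 0.0773 and 0.0479, and each library correlated best with its own number. What libraries of the same number share was not tested, and the main fit did not take the numbers as pairs. With the replicate number as a block, 2651 genes were higher and 1364 lower, and 4 of the 9 genes were higher and 1 lower. Six3 and Six6 had too few reads to be tested in the main fit, and whether greater depth would show a difference was not tested.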
